A study of Mus musculus with 16 samples.

Results

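The response of mouse embryonic stem cells to retinoic acid (RA) was measured in cells that carried a hairpin against Sirt1. The comparison took the 6 arrays of sh-SIRT1 cells given RA and the 3 arrays of sh-SIRT1 cells given vehicle, chosen by their titles, 9 of the 16 arrays of the series. All 9 came from E14 cells, a mouse embryonic stem cell line, which stably expressed a short hairpin RNA against Sirt1 from a lentiviral vector and grew in serum medium with leukemia inhibitory factor, the cytokine that holds such cells undifferentiated. The RA group received 20 nM RA for 2 days and the vehicle group received ethanol over the same time. The isomer of RA and whether the hairpin cells were a clone or a pool are not given in the sources used here. The remaining 7 arrays, 3 with vehicle and 4 with RA at the same dose and time, came from E14 cells with a control hairpin (sh-Control) and serve here only to ask where the response differed between the lines. The design text speaks of duplicates among these samples and does not say which arrays they are, so p-values measure the spread between arrays, which may be partly technical.

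RA is made from vitamin A by retinol and retinaldehyde dehydrogenases, is carried in the cell by the binding proteins Crabp1 and Crabp2, and is cleared by the Cyp26 hydroxylases. It binds the RA receptors (Rara, Rarb, Rarg), which sit on DNA as heterodimers with the retinoid X receptors (Rxra, Rxrb, Rxrg) at direct repeats of a short half-site. In embryonic stem cells RA is known to switch on Cyp26a1, Rarb and the 3' Hox genes within hours and to push the cells out of the pluripotent state. SIRT1 is an NAD-dependent protein deacetylase.

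The promoters of Rarb and Cyp26a1 are shown because they were the only named genes in which a pair of RA receptor half-sites was found, and both genes rose with RA. The half-sites searched were AGGTCA together with AGTTCA as well as GGGTCA together with GGTTCA, as direct repeats spaced by 5 or by 2 bases, on both strands, in the RefSeq windows from 250 bases before to 50 after each start site (build GRCm38.p6). The 250 bases before the start are printed 5' to 3' on the strand of the gene, with the repeat spaced by 5 bases in capitals. The Rarb bases are chr14:16575477-16575726 on the minus strand, with the repeat from 53 to 37 bases before the start on the strand of the gene, and the Cyp26a1 bases are chr19:37697558-37697807 on the plus strand, with the repeat from 32 to 16 bases before the start on the opposite strand, where it reads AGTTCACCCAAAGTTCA.
Rarb: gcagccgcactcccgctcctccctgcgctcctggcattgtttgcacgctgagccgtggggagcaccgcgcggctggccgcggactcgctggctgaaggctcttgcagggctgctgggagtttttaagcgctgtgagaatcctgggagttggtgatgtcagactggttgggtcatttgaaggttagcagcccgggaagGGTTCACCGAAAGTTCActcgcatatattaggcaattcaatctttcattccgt
Cyp26a1: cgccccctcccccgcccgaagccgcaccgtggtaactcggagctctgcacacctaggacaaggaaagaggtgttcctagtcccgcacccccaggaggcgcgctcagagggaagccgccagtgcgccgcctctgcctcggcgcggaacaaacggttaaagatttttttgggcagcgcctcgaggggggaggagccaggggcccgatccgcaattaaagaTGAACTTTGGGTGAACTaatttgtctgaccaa
A repeat spaced by 5 bases was found in 32 of 32851 promoters in the table (0.0974%), in 6 of 11618 tested genes with a promoter (0.0516%) and in 2 of the 1666 that rose by at least 1 log2 unit (0.12%), which are the 2 shown. A repeat spaced by 2 bases was found in 88 promoters (0.268%) and in none of the 101 named genes with a window. A match is a description of letters, and these windows do not cover more distant sites.

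The targeted gene followed the labels in all 9 arrays, and so did the 3 RA markers. Levels below are log2 of the processed intensity minus the array's own 75th percentile, and differences are RA minus vehicle on that scale. Sirt1 (chromosome 10, 62855795 to 62855854, build mm7, the build of the array files) was at 1.85, 1.89 and 1.83 on vehicle arrays 1, 2 and 3, and between 0.92 and 1.59 under RA, with a median of 1.12. It was at 3.85, 3.53 and 3.60 on the sh-Control vehicle arrays and 3.48, 3.28, 3.36 and 3.34 on the sh-Control RA arrays, above every sh-SIRT1 array. RA lowered it in sh-SIRT1 cells by a further difference of -0.67 ± 0.13 (SE, limma adjusted p = 6.35e-04). A slide carries 4 arrays and was scanned once, and slides 1, 2 and 3 held both treatments of sh-SIRT1 cells. Within them the Sirt1 difference was -0.75, -0.93 and -0.58. Crabp2, the carrier that delivers RA to its receptors (chromosome 3, 88062561 to 88062620), was at -5.0, -5.46 and -5.15 in vehicle and at -1.57, -0.53 and -0.13 under RA, where 3 RA values are always the lowest, the median and the highest of the 6 arrays. It rose by 4.52 ± 0.26 (adjusted p = 1.14e-08). Rarb (chromosome 14, 14246146 to 14246205), itself an RA receptor, went from -5.42, -6.18 and -5.83 to -0.69, 0.46 and 0.88 and rose by 6.09 ± 0.34 (adjusted p = 1.01e-08). The anterior Hox gene Hoxb1 (chromosome 11, 96476175 to 96476235) lay at background on every vehicle array, at -7.77, -7.80 and -8.05, and reached -0.43, 0.97 and 1.30 under RA. It was at least 79.8-fold higher (adjusted p = 2.24e-08), where each such bound takes, per vehicle array, the dimmest spot that rose well above background, or the signal of the gene itself if brighter, as the lower level. Within slides 1, 2 and 3 the differences were 5.33, 4.41 and 4.36 for Crabp2, 7.05, 5.89 and 5.91 for Rarb and 9.10, 8.71 and 8.52 for Hoxb1. No RA array overlapped a vehicle array in any of these 4 genes. That was common, as 4044 of all 17650 genes tested lay higher and 6183 lower under RA without overlap.

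**Figure D1:**
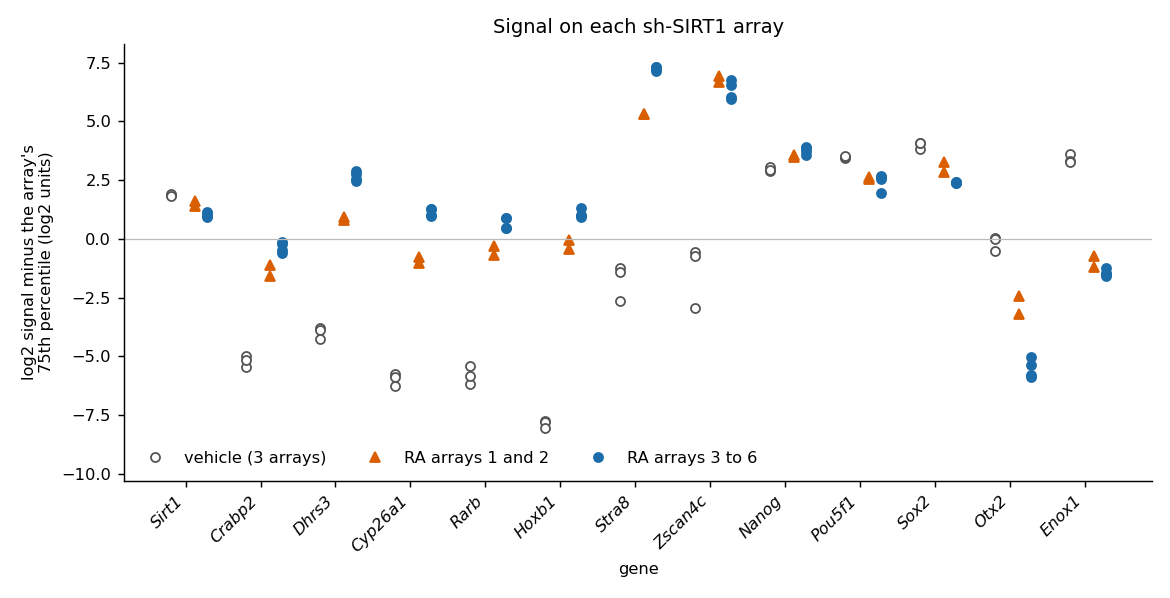
Levels of named genes on the 9 sh-SIRT1 arrays, as log2 signal minus the 75th percentile of the array, with a point per array (open circles vehicle, triangles RA arrays 1 and 2, filled circles RA arrays 3 to 6). The Crabp2, Rarb and Hoxb1 points of the 6 RA arrays all lie above those of the 3 vehicle arrays, and the Sirt1 points lie below them.

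Between 62 and 68% of the probes were well above background on each of the 9 arrays, and the 75th percentile of the processed intensity was 765 to 1155. RA arrays 1 and 2 stood apart from RA arrays 3 to 6. The SD over genes of the log2 difference was 0.266 to 0.361 within these sets of RA arrays and 0.527 to 0.617 across them, against 1.10 to 1.27 between RA and vehicle arrays. Relative to all of RA arrays 3 to 6, 112 genes were higher and 293 lower by at least 1 log2 unit on both RA arrays 1 and 2. Vehicle array 1 differed from vehicle arrays 2 and 3 by an SD of 0.528 and 0.52, against 0.294 between those. The split ran both ways. Of 90 named genes that rose with RA, 30, Crabp2, Rarb, Hoxb1 and Cyp26a1 among them, were lower on RA arrays 1 and 2 than on any of RA arrays 3 to 6 and 27 were higher. Of 45 that fell, 4 were lower there and 23 higher, Otx2 and Sox2 among the latter. Of all 4117 genes that rose, 1448 were lower there and 973 higher, and of all 6206 that fell, 1407 were lower and 1819 higher. The labels give no reason for either split, and values without RA arrays 1 and 2 are given below for some genes and lists only. Others moved as well. Without these arrays the difference went from -1.82 to -2.35 for Pdk1, from -3.54 to -2.92 for Neurod1 and from 0.19 to 0.90 for Lefty1. The lower bound of fold went from 70.6 to 112.9 for Cyp26a1 and from 6.97 to 4.5 for S100g. Of the 10323 genes that passed, 9451 (91.6%) passed in the same direction without RA arrays 1 and 2.

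Most genes measured in these cells differed between RA and vehicle. Of 17650 genes tested, 4117 (23.3%) rose and 6206 (35.2%) fell (limma, Benjamini-Hochberg adjusted p under 0.05), and the median difference over all genes was -0.13. With this scaling large changes ran the other way, as 2412 genes rose and 1024 fell by at least 1 log2 unit. Rises made up 39.9% of all calls and 70.2% of the large ones. With each array centred on its median in place of its 75th percentile these shares were 24.6% (2917 rose, 8962 fell) and 43.9% (1880 rose, 2399 fell), and the median over all genes was -0.415, so the balance of rises and falls depends on the scaling, and among large changes it turned. Among the calls, 490 genes that rose lay at background on all vehicle arrays, and 66 that fell did so on all RA arrays. In all 544 tested genes lay at background on all vehicle arrays, and the filter let these in only through another group. Among the genes described below, the probe used was well above background on 1 of 3 vehicle arrays for Rarb, Hoxa2, Hoxc10, Cdx2, T and Nnmt and on 2 of 3 for Crabp2, Srgn, Olig3, Foxa2, Dkk1, Gm428, Pramel37 and Pramel39, so these rises rest in part on background signals. A list of genes is described below by how many members rose or fell beside these shares, and by its median beside -0.13. In a bulk culture, fewer cells of a type and less RNA per cell cannot be told apart.

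Carriers and enzymes that feed or clear RA rose in part, and the receptors split. Of 8 retinoid binding proteins tested 5 rose and 0 fell, with a median of 0.95, and without vehicle array 1 the number that rose was 3. Of 17 retinoid enzymes 9 rose and 2 fell, with a median of 0.53 (0.46 with genes at background set to their bounds), and under normexp, a model-based background correction, 5 rose. Cyp26a1, the hydroxylase that clears RA, was at -5.74, -6.28 and -5.88 in vehicle, on no array well above background, and at -1.04, 0.99 and 1.27 under RA. It was at least 70.6-fold higher (adjusted p = 1.09e-06). Dhrs3, which returns retinaldehyde to retinol, was at -3.82, -3.90 and -4.25 in vehicle and at 0.80 and 0.95 on RA arrays 1 and 2 against 2.47 to 2.91 on RA arrays 3 to 6. It rose by 6.07 ± 0.46 (adjusted p = 1.44e-07), and by 6.68 without RA arrays 1 and 2, which were still above every vehicle array. Adh5, a broadly expressed alcohol dehydrogenase, moved the other way, from 6.82, 6.71 and 6.66 to 5.73, 5.89 and 6.16 (difference -0.82 ± 0.10, adjusted p = 8.22e-06).

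Of 23 receptors and their coregulators 6 rose and 7 fell, a count near the shares over all genes, with a median of -0.17. Rarb was the largest rise. The receptors that are present before RA fell slightly: Rara by 0.58 ± 0.15 (adjusted p = 0.00508) and Rarg by 0.54 ± 0.19 (adjusted p = 0.0245). The Rarg call rested on vehicle array 1, at 0.27 against -0.47 and -0.43 on the other vehicle arrays, and without it the difference was -0.29 (adjusted p = 0.196). Rxrg, a retinoid X receptor, was at 0.71, -0.04 and 0.06 in vehicle and at -1.93, -1.43 and -1.30 under RA, and fell by 1.77 ± 0.21 (adjusted p = 8.14e-06). With median centring 13 of the 23 fell in place of 7, and with quantile normalization the median was 0.04.

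Hox genes, which assign position along the body axis, rose in all 4 clusters. Of 30 Hox genes tested 26 rose and 1 fell, with a median of 3.62, and by cluster 8 of 10 rose in HoxA, 9 of 9 in HoxB, 4 of 5 in HoxC and 5 of 6 in HoxD. For 15 of the 26 no vehicle array was well above background, so their differences are bounds, and for Hoxb2 and Hoxb6 the same held for the probe used. These 15 passed the filter only through a group given RA, where they are bright. Of 38 Hox genes on the array 30 were tested, 5 of 8 in HoxC and 6 of 9 in HoxD, and the counts leave out the others. The medians of HoxA, HoxB, HoxC and HoxD were 4.27, 5.36, 1.59 and 2.79, and with each of the 15 genes at its bound they were 4.27, 4.76, 1.59 and 1.04, against 3.34 over the 30. A filter that kept only probes above background on all 9 arrays left 8 rising Hox genes, and under normexp 20 rose.

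In HoxB, Hoxb2 was at -5.64, -6.16 and -6.33 in vehicle, where the probe was at background, and at 2.53, 2.92 and 3.18 under RA. It was at least 390-fold higher (adjusted p = 7.73e-10). Hoxb3 and Hoxb5 were at least 27.1-fold and 63.4-fold higher. Hoxb4 rose by 3.32 ± 0.21, Hoxb7 by 4.28 ± 0.29 and Hoxb9 by 2.17 ± 0.14. Hoxb13, at the 5' end of the cluster, rose by 1.99 ± 0.44 (adjusted p = 0.00141). Hoxb6 was at least 93.7-fold higher by its brightest probe, at background in vehicle, while the probe that remained under the filter on all 9 arrays gave 0.451 (adjusted p = 0.324).

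In HoxA, Hoxa7 went from -0.85, -1.59 and -1.56 in vehicle to 2.76, 2.95 and 3.29 under RA and rose by 4.29 ± 0.27 (adjusted p = 2.36e-08), and Hoxa2 by 3.35 ± 0.50. In 5 genes at background in vehicle the rise is a bound. Hoxa4 was at least 30.8-fold higher, Hoxa5 31.4-fold, Hoxa9 46.1-fold, Hoxa10 25.8-fold and Hoxa11 2.25-fold. Hoxa6 was at -4.08, -5.01 and -5.72 and -4.36, -4.25 and -3.51, with overlapping arrays, and its difference of 0.82 ± 0.34 did not pass (adjusted p = 0.0503). The probes of Hoxa3 disagreed. The brighter one did not pass, at -1.71, -1.98 and -2.28 and -2.20, -2.10 and -1.99 (difference -0.11 ± 0.12, adjusted p = 0.436), and the dimmer one, above background on 0 vehicle arrays and 6 RA arrays, rose by 4.75 ± 0.26 (adjusted p = 7.78e-09). The mean of both was 2.32.

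HoxC was uneven, and the rises in HoxD were bounds. Hoxc9 was at -6.49, -7.79 and -6.98 in vehicle, at background, and at 1.54, 1.87 and 2.25 under RA, at least 185-fold higher (adjusted p = 2.22e-07), one of the largest bounds of any gene here. Hoxc6 was at least 10.7-fold higher. Hoxc4, by contrast, was at -2.04, -3.13 and -2.92 in vehicle and -2.91, -2.53 and -1.80 under RA and did not pass (difference 0.25 ± 0.29, adjusted p = 0.481). In HoxD the bounds ran from at least 1.67-fold for Hoxd1 to at least 4.73-fold for Hoxd13, and as lower limits they give no order among the clusters. Hoxd12 fell, from -4.99, -5.05 and -5.09 to -7.49, -6.66 and -5.82 (difference -1.64 ± 0.35, adjusted p = 0.00103), with 1 of 6 RA arrays well above background. The calls of Hoxc5, Hoxc10, Hoxd1, Hoxd4, Hoxd8 and Hoxd12, as well as that of Hoxa11, did not pass under normexp.

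**Figure D2:**
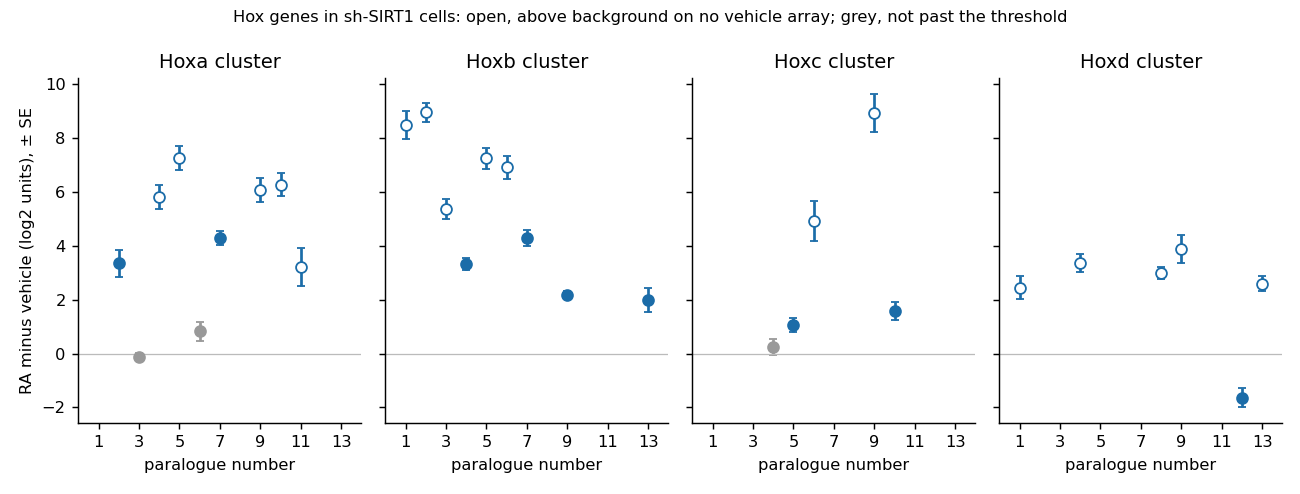
RA minus vehicle difference in log2 units for Hox genes of the 4 clusters, by paralogue number on the horizontal axis, with error bars of 1 SE. Open points mark probes above background on no vehicle array, whose heights rest on background signals, and grey points those that did not pass. Hoxd12 lies below 0 and passes, Hoxa3, Hoxa6 and Hoxc4 do not pass, and the other points lie above 0 and pass.

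Of 17 Hox cofactors and regulators 10 rose and 3 fell, with a median of 1.08. Cdx2 and Cdx1, the caudal homeobox factors that activate the central and posterior Hox genes, led. Cdx2 was at -6.39, -5.66 and -5.07 in vehicle and at -1.06, -0.62 and -0.32 under RA and rose by 5.05 ± 0.52 (adjusted p = 2.04e-06). Cdx1 rose by 3.51 ± 0.26 and Meis1, a Hox DNA-binding partner, by 3.1 ± 0.48. Gbx2, a hindbrain and stem cell factor, fell by 1.18 ± 0.27 (adjusted p = 0.002).

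Most pluripotency genes fell, and all 32 tested were still well above background on every RA array. Of these, 22 fell (68.8% against 35.2% of all genes) and 5 rose, with a median of -0.83, and 12 fell by at least 1 log2 unit. Pou5f1 went from 3.45, 3.47 and 3.54 in vehicle to 1.97, 2.60 and 2.67 under RA and fell by 0.98 ± 0.20 (adjusted p = 9.29e-04). Sox2 fell by 1.38 ± 0.17, Esrrb by 0.80 ± 0.12 and Zfp42 by 0.76 ± 0.15, all with no overlap between the groups. In the list 20 of 32 members lay lower without overlap, against 6183 of 17650 genes. Foxd3, a repressor needed for the pluripotent state, fell furthest, from 0.90, 0.57 and 0.55 to -2.55, -2.39 and -1.51 (difference -2.82 ± 0.35, adjusted p = 1.25e-05). Nanog and Tbx3 were exceptions. Nanog was at 3.07, 2.91 and 2.94 in vehicle and 3.48, 3.65 and 3.92 under RA and rose by 0.72 ± 0.14 (adjusted p = 6.30e-04), and by 0.81, 0.80 and 0.76 within slides 1, 2 and 3. Tbx3 rose by 1.35 ± 0.22. Without vehicle array 1 the number of rising members was 3, and with median centring 2.

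Of 12 genes of the primed, post-implantation state 5 fell and 3 rose, near the shares over all genes, with a median of -0.68. Otx2, the homeobox factor of the epiblast and forebrain, was at -0.54, 0.03 and -0.01 in vehicle and at -5.87, -5.21 and -2.43 under RA, with every RA array below every vehicle array. It fell by 4.45 ± 0.79 (adjusted p = 2.54e-04), and by 5.35 without RA arrays 1 and 2, with 4 of 6 RA arrays well above background. Fgf5, the epiblast growth factor, was at -5.04, -2.70 and -2.68 and -3.54, -3.45 and -3.02 with overlapping arrays and did not pass (difference 0.10 ± 0.61, adjusted p = 0.9).

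Genes of the 2-cell-like state, a transcriptional state that a few embryonic stem cells pass through and that resembles the 2-cell embryo, rose by wide margins. Of 12 tested 11 rose and 0 fell, with a median of 4.70 (4.49 with bounds). Zscan4c, the defining gene of the state, was at -2.93, -0.56 and -0.75 in vehicle and at 5.97, 6.63 and 6.93 under RA, and rose by 7.91 ± 0.48 (adjusted p = 2.19e-08), by 6.53, 9.49 and 7.60 within slides 1, 2 and 3. Tcstv1 and Tcstv3, of another multicopy family of that state, rose by 6.80 ± 0.53 and 6.72 ± 0.49. Among the largest rises outside this list were Gm428, Pramel37 and Pramel39, with differences of 7.85 ± 0.89, 7.53 ± 0.61 and 7.17 ± 0.48, and Usp17lb was at least 48.1-fold higher. Zscan4, Tcstv, Pramel and Usp17l genes have near-identical copies, and which copy a probe reads is uncertain. The mean of the list was -5.07, -3.34 and -3.52 on vehicle arrays 1, 2 and 3 and 0.69, 0.93, 1.47, 0.01, 1.19 and 0.11 on RA arrays 1 to 6, so vehicle array 1 was lowest and RA arrays 4 and 6 were the lowest of the treated.

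Germ line and meiosis genes rose as well. Of 35 tested 23 rose and 1 fell, with a median of 1.17 (1.03 with bounds). Stra8, named for its stimulation by RA and needed to enter meiosis, was at -2.66, -1.25 and -1.41 in vehicle and at 5.30, 7.18 and 7.33 under RA, and rose by 8.37 ± 0.56 (adjusted p = 4.25e-08), and by 9.03 without RA arrays 1 and 2. Dnd1, a germ cell RNA-binding protein, fell by 0.68 ± 0.15 (adjusted p = 0.0013).

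Markers of extraembryonic endoderm and trophoblast rose, unevenly. Of 14 primitive endoderm genes 8 rose and 0 fell, with a median of 1.87 (1.60 with bounds). Gata6 was at -4.51, -3.93 and -3.67 in vehicle and at 0.23, 0.31 and 0.94 under RA and rose by 4.53 ± 0.48 (adjusted p = 3.1e-06). Foxa2 rose by 5.41 ± 0.41 and Sox17 by 3.56 ± 0.67. Gata4 was at -5.23, -6.18 and -5.22 and -5.42, -4.50 and -4.07, with overlapping arrays, and did not pass (difference 0.88 ± 0.51, adjusted p = 0.159). Of 17 basement membrane genes, which parietal endoderm secretes in bulk, 11 rose and 0 fell, with a median of 1.79 (1.21 with bounds). Col4a1 rose by 5.05 ± 0.70, from -3.52, -3.54 and -3.65 to 2.43 and 2.49 on RA arrays 1 and 2 and 0.97 to 1.01 on RA arrays 3 to 6, and by 4.57 without the first 2. Srgn, a secretory proteoglycan, showed the same split and rose by 6.23 ± 1.11 (adjusted p = 2.74e-04), and by 5.58 without RA arrays 1 and 2. Lama1 rose by 1.79 ± 0.58 (adjusted p = 0.0168) and by 1.59 without RA arrays 1 and 2, when it did not pass (adjusted p = 0.0572).

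Of 15 yolk sac genes 9 rose and 1 fell, with a median of 1.54 (1.07 with bounds), and 4 rose under normexp. Apoe, an apolipoprotein well expressed in the undifferentiated cells, fell by 1.73 ± 0.33 (adjusted p = 5.07e-04). S100g, a calcium-binding protein, was at background in vehicle and at least 6.97-fold higher under RA. Afp, the fetal serum protein, was at background in vehicle and well above it on 3 of 6 RA arrays, at -3.16 and -2.61 on RA arrays 1 and 2 and -6.34 to -5.48 on RA arrays 3 to 6. It was at least 1.69-fold higher over all 6, and over RA arrays 3 to 6 alone no bound above the vehicle floor was reached. Neither gene passed under normexp. Of 15 trophoblast genes 10 rose and 1 fell, with a median of 2.85. Gata3 went from -5.31, -4.15 and -4.64 to -0.13, 0.06 and 0.59 and rose by 4.86 ± 0.38 (adjusted p = 1.79e-07). Tead4, which starts the trophoblast program, fell by 0.39 ± 0.13 (adjusted p = 0.0188), and did not pass without vehicle array 1 (-0.34, adjusted p = 0.0778) or vehicle array 3 (-0.38, adjusted p = 0.0562).

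The matrix genes moved together with markers of fibroblasts, the cells used as feeders. Of 19 fibroblast genes 16 rose and 0 fell, with a median of 2.29 (2.11 with bounds). Their mean was -2.88 to -2.64 on the vehicle arrays and -0.69 to 0.21 under RA, highest on RA arrays 1 and 2 (0.00 and 0.21). On the vehicle arrays 14 of the 19 were well above background on all 3 and 4 on none. Dcn, a fibroblast proteoglycan, lay at background in vehicle, at -7.57, -7.18 and -6.34, and at least 10.7-fold higher under RA. Col1a1 rose by 4.01 ± 0.50 (adjusted p = 1.24e-05). The culture text names no feeder cells, and the part of fibroblast RNA in the matrix results was not tested.

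**Figure D3:**
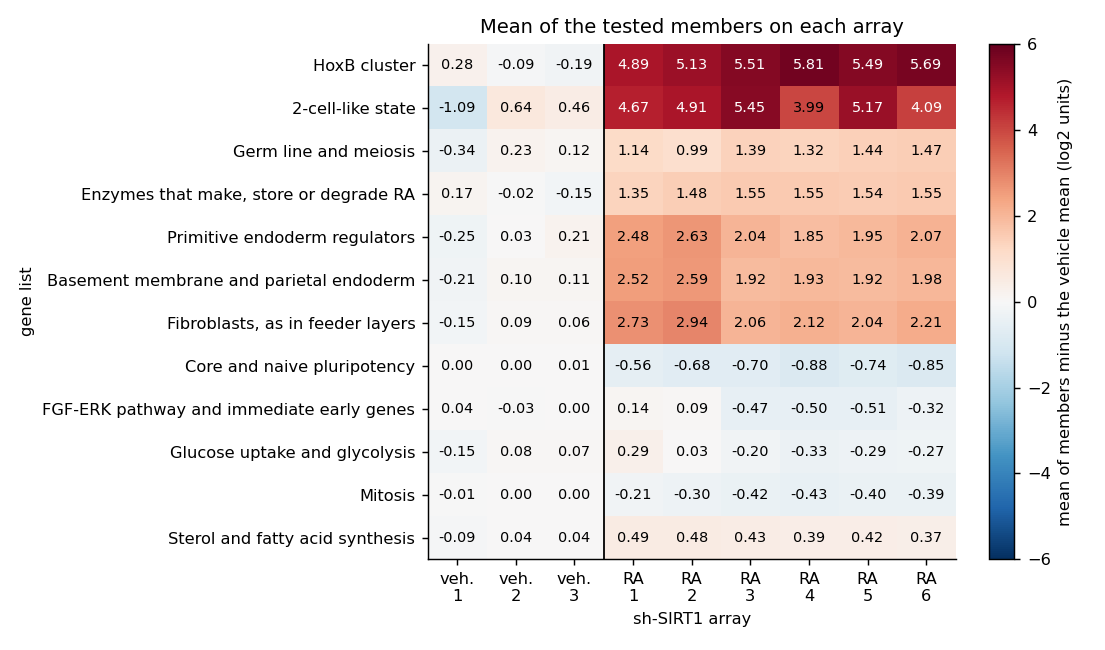
Mean level of gene lists on each of the 9 sh-SIRT1 arrays, in log2 units relative to the mean of the 3 vehicle arrays. The 2-cell list lies at 3.99 to 5.45 under RA, the HoxB list at 4.89 to 5.81 and the fibroblast list at 2.04 to 2.94, with RA arrays 1 and 2 highest in the fibroblast, basement membrane and primitive endoderm lists.

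Mesoderm genes rose and neural genes moved in part. Of 18 mesoderm genes 12 rose and 1 fell, with a median of 1.51 (1.05 with bounds). For 6 of the 12 no vehicle array was well above background, and with only probes above background on all 9 arrays 5 rose. Meox1, a somite homeobox factor, was at -4.87, -3.93 and -4.39 in vehicle and at 0.70, 0.99 and 1.89 under RA, and rose by 5.57 ± 0.55 (adjusted p = 1.43e-06). Mesp1, a marker of early mesoderm, fell by 1.05 ± 0.20 (adjusted p = 4.67e-04), and T, the primitive streak factor, was at -5.62, -6.43 and -5.41 and -5.26, -5.20 and -4.55. Its difference of 0.77 ± 0.31 passed barely (adjusted p = 0.044) and was lost without single arrays of every group, with 0.47 (adjusted p = 0.257) without vehicle array 2. Of 20 neuroectoderm genes 8 rose and 2 fell, with a median of 0.30. With that filter or with normexp 5 rose, and with median centring 6 fell. Olig3, a factor of the dorsal neural tube, rose by 4.91 ± 0.20 (adjusted p = 7.73e-10), from -5.63, -5.56 and -5.74 to -1.27, -0.58 and -0.39. Pax6 was at -1.88, -2.63 and -2.57 and -3.18, -2.43 and -1.85, with overlapping arrays, and did not pass (difference -0.13 ± 0.80, adjusted p = 0.9). Sox1, the earliest neural plate marker, rose by 1.26 ± 0.34 (adjusted p = 0.0057), and its difference without vehicle array 2 was 0.88 (adjusted p = 0.051). Neurod1, a neuronal differentiation factor, fell by 3.54 ± 0.78 (adjusted p = 0.0014), with 2 of 6 RA arrays well above background.

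Blood and epithelial genes were mixed. Of 11 blood and endothelial genes 3 rose and 3 fell, near the shares over all genes. Flt1 rose by 3.51 ± 0.53 (adjusted p = 6.55e-05), and Kdr, the other VEGF receptor of early blood vessels, did not pass (difference 0.28 ± 0.36, adjusted p = 0.535). Esam fell by 1.20 ± 0.36 (adjusted p = 0.0109), and by 0.78 without vehicle array 1, when it did not pass (adjusted p = 0.0924). Of 19 epithelial and mesenchymal genes 4 rose and 4 fell. Zeb2, a repressor of epithelial genes, rose by 2.82 ± 0.32 (adjusted p = 5.16e-06) and Grhl2, an epithelial activator, went from 0.76, 1.35 and 1.23 to -3.52, -3.05 and -2.24 and fell by 4.09 ± 0.35 (adjusted p = 4.63e-07). Cdh1 and Vim differed by -0.23 ± 0.11 and 0.01 ± 0.24 and did not pass (adjusted p = 0.08 and 0.966).

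**Figure D4:**
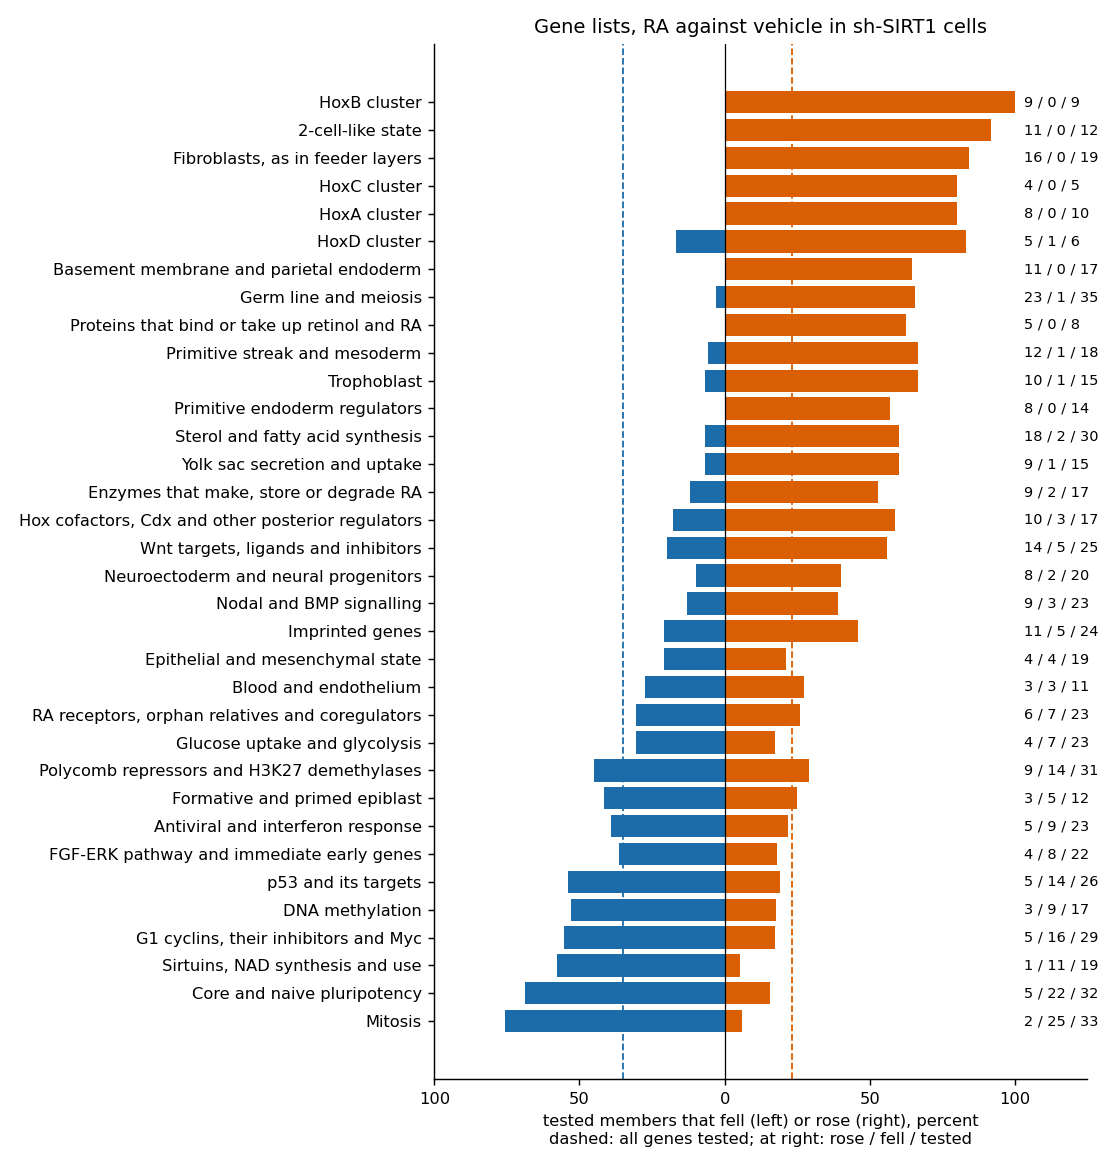
Percent of the tested members of each of 34 gene lists that rose (right bars) or fell (left bars) with RA in sh-SIRT1 cells, with dashed lines at the shares over all 17650 genes (23.3% rose, 35.2% fell). The Hox, 2-cell and fibroblast lists hold mostly rises, and the mitosis and pluripotency lists mostly falls.

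Signalling genes changed member by member. Of 23 Nodal and BMP genes 9 rose and 3 fell, with a median of 0.23, and without vehicle array 1 the number that fell was 0. Bmp4 fell by 1.79 ± 0.56 (adjusted p = 0.0138), with RA arrays 1 and 2 at 1.65 and 1.62 and RA arrays 3 to 6 at -0.59 to -0.46. The difference was -2.50 without RA arrays 1 and 2 (adjusted p = 1.11e-04) and -1.63 without vehicle array 1, when it did not pass (adjusted p = 0.0579). Nodal and Lefty1 did not pass (differences 0.33 ± 0.30 and 0.19 ± 0.84), with Lefty1 at 2.24 and 3.00 on RA arrays 1 and 2 and at 4.73 to 4.75 on RA arrays 3 to 6. Of 22 FGF and ERK genes 4 rose and 8 fell, near the shares over all genes, with a median of -0.43, and without vehicle array 1 the number that rose was 2. Egr1, an immediate early target of ERK, went from 0.57, 0.83 and 0.79 to -3.20, -2.89 and -1.71 and fell by 3.31 ± 0.43 (adjusted p = 1.73e-05). Dusp14, a phosphatase of MAP kinases, rose by 2.44 ± 0.27 (adjusted p = 4.08e-06). Of 25 Wnt genes 14 rose and 5 fell, with a median of 0.64. Dkk1, a secreted Wnt inhibitor, was at -5.51, -4.87 and -4.90 in vehicle and at 0.07, 0.12 and 0.93 under RA and rose by 5.37 ± 0.36 (adjusted p = 4.51e-08). Sp5, a Wnt target, fell by 1.92 ± 0.60 (adjusted p = 0.013), with a call that did not hold without vehicle array 1 (-1.58, adjusted p = 0.0721).

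Chromatin genes moved in both directions. Of 31 Polycomb and related genes 9 rose (29.0%) and 14 fell (45.2%), near the shares over all genes (23.3% and 35.2%), with a median of -0.11 against -0.13. Eed, a core subunit of the complex that places H3K27 methylation, fell by 1.47 ± 0.13 (adjusted p = 5.7e-07) and its catalytic subunit Ezh2 by 0.52 ± 0.11 (adjusted p = 8.43e-04). Of 17 DNA methylation genes 3 rose and 9 fell, with a median of -0.34. Dnmt3b, a de novo methyltransferase, went from 3.20, 3.17 and 3.13 to 1.30, 1.42 and 1.98 and fell by 1.62 ± 0.16 (adjusted p = 1.42e-06). The 5-methylcytosine oxidases moved apart: Tet1 fell by 1.92 ± 0.14 (adjusted p = 1.08e-07) and Tet3 rose by 1.33 ± 0.19 (adjusted p = 4.38e-05). Of 24 imprinted genes 11 rose and 5 fell, with a median of 0.77 and 7 rising without vehicle array 1. Igf2, the fetal growth factor, rose by 5.41 ± 0.88 (adjusted p = 1.23e-04), with RA arrays from 3.73 to 6.10 against -1.86, -0.28 and -0.52 in vehicle (4.64 without RA arrays 1 and 2, which were at 6.04 and 6.10), and Meg3, a maternally expressed RNA, fell by 1.33 ± 0.19 (adjusted p = 4.37e-05).

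Growth and division genes fell, mostly by under 1 log2 unit, and the mitosis and p53 counts depended on the scaling. Of 33 mitosis genes 25 fell (75.8%) and 2 rose, with a median of -0.44 and 0 that moved by 1 log2 unit or more. Kif11, a spindle motor, went from 0.49, 0.40 and 0.46 to -0.49, -0.42 and -0.33 and fell by 0.86 ± 0.10 (adjusted p = 5.21e-06). With quantile normalization 11 of the 33 fell, near the share over all genes under that setting (5347 of 17650). Of 29 G1 and Myc genes 16 fell and 5 rose, and 3 rose without vehicle array 2, without vehicle array 3 or under normexp, and 2 with median centring. Mycn fell by 2.89 ± 0.24 (adjusted p = 3.44e-07) and Myc by 1.00 ± 0.17 (adjusted p = 1.56e-04), while Ccnd2, a G1 cyclin, rose by 2.28 ± 0.56 (adjusted p = 0.00276). Of 26 p53 genes 14 fell and 5 rose, with a median of -0.30. Trp53 itself fell by 1.07 ± 0.12 (adjusted p = 3.81e-06), and its target Cdkn1a, an inhibitor of the cell cycle, rose by 0.67 ± 0.12 (adjusted p = 3.53e-04). With quantile normalization 7 of the 26 fell, also near the share over all genes under that setting.

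Among metabolic genes the sterol list held mostly rises and the sirtuin and NAD list mostly falls. Of 30 sterol synthesis genes 18 rose and 2 fell, with a median of 0.38, a shift that depends on the scaling, since 6 rose with median centring, 11 with normexp and 10 without vehicle array 1. Acly, which makes cytosolic acetyl-CoA, fell by 0.43 ± 0.12 (adjusted p = 0.0052), and its difference was -0.22 with quantile normalization, when it did not pass (adjusted p = 0.116). Of 23 glycolysis genes 4 rose and 7 fell, near the shares over all genes. The number that fell was 12 without RA arrays 1 and 2, 13 with median centring and 3 with quantile normalization, when the list median was 0.10 in place of -0.25. Pdk1, which diverts pyruvate from mitochondria, fell by 1.82 ± 0.41 (adjusted p = 0.00158), and the glucose transporter Slc2a3 rose by 1.39 ± 0.23 (adjusted p = 1.25e-04). Of 19 sirtuin and NAD genes 11 fell and 1 rose, with a median of -0.34. Naprt, an entry enzyme of NAD synthesis, fell by 1.80 ± 0.14 (adjusted p = 2.49e-07), and Nnmt, which uses up nicotinamide, rose by 3.27 ± 0.91 (adjusted p = 0.00654) and by 4.21 without RA arrays 1 and 2. Of 23 interferon genes 5 rose and 9 fell, also near those shares. Ddx58, the cytosolic RNA sensor, fell by 3.64 ± 0.29 (adjusted p = 2.69e-07), from 1.63, 1.24 and 1.32 to -2.48, -2.29 and -1.79, and Oasl2 was at least 9.48-fold higher.

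Outside the lists, the largest rises and falls included several developmental regulators. Pmp22, a membrane protein of myelin and epithelia, rose by 7.07 ± 0.38 (adjusted p = 8.05e-09), and the secreted Igfbp5, at background in vehicle by the probe used, was at least 35.2-fold higher. Zfp503, a zinc finger repressor, was at least 59.9-fold higher and Cryge, a lens crystallin, at least 45.2-fold. Enox1, a cell-surface oxidase, fell furthest among genes measured in both groups, from 3.63, 3.33 and 3.28 to -1.60, -1.35 and -0.74 (difference -4.71 ± 0.22, adjusted p = 2.67e-09). Myb, a factor of proliferating progenitors, fell by 3.82 ± 0.14 with levels of -1.29, -1.20 and -1.21 and -5.27, -5.05 and -4.86 (adjusted p = 4.21e-10). Glod5 fell by 4.24 ± 0.58, Nkx6-3 by 3.62 ± 0.38 and the neighbouring cell adhesion genes Nphs1 and Kirrel2 by 3.76 ± 0.25 and 3.51 ± 0.40. For Glod5 the RA arrays were spread from -5.09 to -2.60, below every vehicle array, which was a condition for naming these falls. Insc went from -2.19, -2.70 and -2.63 to -7.54, -6.80 and -5.39, with 1 of 6 RA arrays well above background, so its difference of -4.10 ± 0.34 rests on background signals, and under normexp it was -1.19 and did not pass (adjusted p = 0.0646). Under normexp the calls of Rara, Rarg, Foxa1, Tead4, Mesp1, T, Sox1, Neurod1 and Insc were lost.

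The response resembled that of sh-Control cells in most genes and differed in some. In sh-Control cells 3512 genes rose and 4795 fell, 2819 genes rose in both lines, 3929 fell in both and 74 were called in opposite directions. Across genes the 2 sets of differences correlated at 0.869, given as a description since genes are not independent. The difference between the 2 responses passed in 653 genes, higher in sh-SIRT1 cells for 307 (1.74%) and lower for 346 (1.96%). This count rests on the arrays used, since it was 199 without sh-Control vehicle array 3 and 1836 without sh-Control RA array 1, and 1235 without sh-SIRT1 RA arrays 1 and 2. sh-Control RA arrays 2 to 4 also stood apart: the Y-linked gene Ddx3y was at -6.91, -8.01 and -8.12 there, against 0.23 on sh-Control RA array 1. It was at 1.60, 0.39 and 0.33 on the sh-Control vehicle arrays and at 0.41 to 1.26 on the 9 sh-SIRT1 arrays. The sh-Control response thus compares mostly RA arrays without this signal with vehicle arrays that carry it. With sh-Control RA array 1 as the only array of its group 318 genes passed. Since each hairpin came with a line of its own, hairpin and line cannot be told apart.

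**Figure D5:**
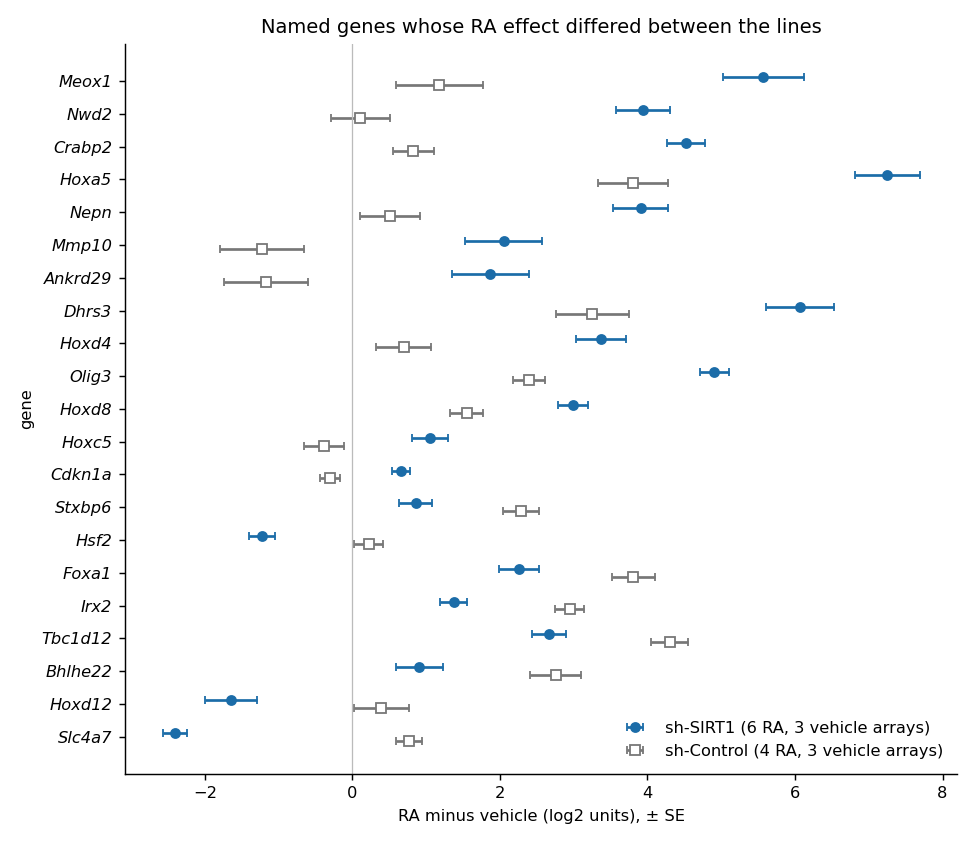
RA minus vehicle difference in log2 units with bars of 1 SE for 21 named genes whose response differed between the lines, in sh-SIRT1 cells (filled circles) and sh-Control cells (open squares). Crabp2 lies at 4.52 and 0.83 and Slc4a7 at -2.41 and 0.77.

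Among retinoid genes, Crabp2 showed the clearest difference. In sh-Control cells it was at -4.23, -4.41 and -4.47 in vehicle and -3.60, -3.28, -3.64 and -3.67 under RA, a rise of 0.82 ± 0.28, so the response in sh-SIRT1 cells was larger by 3.70 ± 0.38 (adjusted p = 5.19e-04). Without any single array this call held, and under normexp it was 2.20 and did not pass (adjusted p = 0.0736). Dhrs3 differed by 2.82 ± 0.68 (adjusted p = 0.0367), a call lost in 19 of 28 alternatives. In both genes the vehicle arrays of the lines already lay apart without overlap, lower in sh-SIRT1 cells. Crabp2 was at -5.0, -5.46 and -5.15 there, and Dhrs3 at -3.82, -3.90 and -4.25 against -2.39, -2.75 and -2.81 in sh-Control cells. These differences of responses thus rest in part on the lower start. Of the Hox genes, Hoxa5 rose more in sh-SIRT1 cells, with levels of -5.21, -7.51 and -7.86 and -2.50, -3.15, -3.20 and -3.39 in sh-Control vehicle and RA arrays and a difference of 3.45 ± 0.65 (adjusted p = 0.0126). Hoxd4 and Hoxd8 were higher by 2.67 and 1.44, from levels at background in vehicle in both lines. Where a group lies at background, as for these genes, Bhlhe22 and Foxa1, the fitted difference rests on background signals and is no bound.

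Slc4a7, a bicarbonate transporter, moved in opposite directions. In sh-SIRT1 cells it went from 1.79, 2.00 and 1.95 to -0.59, -0.51 and -0.33, and in sh-Control cells from 0.73, 0.13 and 0.28 to 1.56, 1.24, 1.11 and 0.66. The difference of responses was -3.17 ± 0.24 (adjusted p = 4.28e-05), and the vehicle arrays of the lines already lay apart without overlap. Olig3 rose more in sh-SIRT1 cells, by 2.51 ± 0.29 (adjusted p = 0.00123), from overlapping levels in vehicle. Slc4a7 and Olig3 were the only 2 of 22 named genes whose difference passed in every alternative in which it was tested. Olig3 was not tested under the filter that kept only probes above background on all sh-SIRT1 arrays. Meox1 rose more by 4.39 ± 0.80 (adjusted p = 0.0114, and 3.85, adjusted p = 0.0756, with slide as a block). Cdkn1a, which rose in sh-SIRT1 cells, had a difference of -0.30 ± 0.13 in sh-Control cells that did not pass, and the difference of responses was 0.97 ± 0.18 (adjusted p = 0.0122), a call lost under normexp, with either block (adjusted p = 0.0792 and 0.0909 with replicate and slide) and with sh-Control RA array 1 alone. Its sh-SIRT1 vehicle arrays, at -0.33, 0.11 and 0.06, lay below the sh-Control ones, at 0.12, 0.24 and 0.24.

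Several genes with a smaller rise in sh-SIRT1 cells started from different levels in vehicle. Bhlhe22, a neural factor, was at -6.01, -7.37 and -7.69 in sh-Control vehicle arrays, all at background, and at -2.28, -3.39 and -3.32 in sh-SIRT1 vehicle arrays, and the difference of responses was -1.85 ± 0.47 (adjusted p = 0.0462), a call lost in 21 of 28 alternatives. Irx2 was at -4.31, -4.34 and -4.28 and -2.22, -3.09 and -3.06 in vehicle in the 2 lines, with RA levels of -1.11, -1.38, -1.47 and -1.48 and -1.64, -1.53 and -1.07, and differed by -1.57 ± 0.27 (adjusted p = 0.00893). Tbc1d12 and Stxbp6 likewise started higher in sh-SIRT1 cells and differed by -1.64 and -1.43, calls lost in 7 and 14 alternatives. Foxa1 started at background in both lines and differed by -1.55 ± 0.40 (adjusted p = 0.047), a call lost in 18 alternatives, both blocks among them.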

How the data were processed

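RNA of 16 samples was hybridised to 1-colour (Cy3) Agilent whole mouse genome arrays of 45018 spots. The deposited files hold the scanner intensity, processed by the authors with Feature Extraction 9.5 per the submitters' processing notes (9.5.3.1 per the file headers), and the series matrix holds the same deposited intensity values. Probe positions are of build mm7 per the file headers.

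Control spots were left out, as were 87 to 131 spots per array that carried an outlier mark. Processed intensities were put on the log2 scale, the 75th percentile of each array was subtracted, and spots of a probe were averaged. A probe was kept where some group had it well above background on every array (26375 of 41174), and the brightest kept probe stood for its gene. Of 17650 genes, 11936 were named in the RefSeq table by accession, 1740 by symbol and 920 by synonym. The others kept the files' names. limma 3.58.1 in R 4.3.3 (lmFit, eBayes) fitted a mean for each of the 4 groups over all 16 arrays with 12 residual degrees of freedom, and p-values, all two-sided, were adjusted by Benjamini-Hochberg (threshold 0.05). The same steps were tested on simulated data with independent noise on each array. Those data held no split among the arrays of a group and no duplicates, so the effect of these was not tested. The number of arrays limits the precision.

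The comparison and the 34 gene lists were chosen with earlier results of these data known. Named genes are Sirt1 and the 3 markers, the 12 largest rises and falls without overlap, the 8 largest bounds, the top riser and faller and preset members of each list, all Hox genes, and the 8 largest differences between the lines in each direction. Alternatives tried were the 9 sh-SIRT1 arrays alone, a replicate or slide block, normexp, median centring, quantile normalization, other filters on dim probes, outlier spots kept, the mean of a gene's probes, sh-Control RA array 1 alone and each array left out. Leaving out RA arrays 1 and 2 was added after seeing the data. Whether the probe used for a named gene was itself above background was checked after the results were seen, and 3 genes were then given as bounds. Some named genes are counted but not reported here.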

Additional observations from a re-analysis of the deposited data

Results flagged for a closer look

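Of 175 values tested over the 6 RA arrays of sh-SIRT1 cells, 10 had an array set apart from the other 5 by Dixon's ratio, where chance sets apart about 1 in 20. RA array 1 stood apart in Kirrel2 at -2.22 (others -4.44 to -4.13), Nphs1 at -1.58 (others -2.16 to -2.02), Cdkn1a at 0.46 (others 0.61 to 0.70) and the mean of the retinoid enzymes at -1.62 (others -1.49 to -1.42). RA array 2 stood apart in Kdr at -3.60 (others -4.46 to -4.16), Ddx58 at -1.79 (others -2.48 to -2.25), Dkk1 at 0.93 (others 0.07 to 0.36) and the mean of the imprinted genes at 1.11 (others 0.83 to 0.93). RA array 5 stood apart in Sox1 at -3.06 (others -2.83 to -2.71), and RA array 6 in Pou5f1 at 1.97 (others 2.55 to 2.67).

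The response to RA differed between the lines in 22 named genes by the limma test of that difference, of which 21 are given, as sh-SIRT1 minus sh-Control in log2 units. It was larger in sh-SIRT1 cells for Meox1 (4.40), Nwd2 (3.84), Crabp2 (3.70), Hoxa5 (3.45), Nepn (3.40), Mmp10 (3.28), Ankrd29 (3.04), Dhrs3 (2.82), Hoxd4 (2.67), Olig3 (2.51), Hoxd8 (1.44), Hoxc5 (1.44) and Cdkn1a (0.97). It was lower for Slc4a7 (-3.18), Hoxd12 (-2.04), Bhlhe22 (-1.85), Tbc1d12 (-1.64), Irx2 (-1.58), Foxa1 (-1.55), Hsf2 (-1.45) and Stxbp6 (-1.43). Hoxa5, Hoxd4, Hoxd8, Nwd2, Nepn, Mmp10 and Foxa1 were at background on all sh-SIRT1 vehicle arrays. With sh-Control RA array 1 as the only array of its group 14 of the 22 calls were lost, in a fit that takes 1 array to vary like the other groups. Among the 14 the difference was then 3.1 for Dhrs3, 3.18 for Nepn, -1.80 for Bhlhe22 and 2.88 for Hoxa5, and 1.54 for Ankrd29, 0.61 for Cdkn1a and -0.61 for Stxbp6. The part of the split among the sh-Control RA arrays in these differences was not tested.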

How the results depend on the processing

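The 10323 genes that passed with RA in sh-SIRT1 cells became 7105 to 11879 over 29 alternatives, 9053 to 10806 when single arrays were left out. With normexp 2031 genes in place of 3436 passed with at least 1 log2 unit (3316 to 3500 without single arrays). The difference between the lines was less stable than either: 653 genes became 151 with a replicate block, 89 with a slide block, 23 with normexp, 278 with no filter, 318 with sh-Control RA array 1 alone, 1235 without sh-SIRT1 RA arrays 1 and 2, and 199 to 1836 without single arrays. Deviations of samples with the same number from their group means correlated at 0.187, -0.213 and 0.22 for numbers 1, 2 and 3. Over all pairs of a vehicle and an RA array these correlations ran from -0.269 to 0.335. Whether the numbers pair the samples cannot be told from these values. The replicate block left 9882 genes passing. Slide had a consensus correlation of 0.008. Of 135 called named genes 105 kept their call in all alternatives in which they were tested, and none turned. The filter that kept only probes above background on all sh-SIRT1 arrays left some called genes untested. Crabp2, Rarb, Hoxb1, Hoxb2 and Cyp26a1 were among these, so their calls were not tried under that filter. Hoxa3, which did not pass (-0.114), was at 2.317 with the mean of all probes (adjusted p = 4.37e-08). Of the 22 named differences between the lines 19 were lost under normexp, 14 under the replicate block and 13 under the slide block, and the cause was not tested. Median centring moved the share of rises from 39.9 to 24.6% and, among differences between the lines, the share of higher responses from 47 to 29.7%. Probes near background limit the bounds.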

Other observations

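RA arrays 1 and 2 differed from RA arrays 3 to 6 in both directions, among genes that rose with RA too. Cyp26a1 was at -1.04 and -0.78 on RA arrays 1 and 2 and at 0.98 to 1.27 on the others, Stra8 at 5.30 on both against 7.14 to 7.33, and Hoxb1 at -0.43 and -0.07 against 0.95 to 1.30. The trophoblast factor Gata3 was at 0.40 and 0.59 against -0.13 to 0.08, the endoderm factor Gata6 at 0.92 and 0.94 against 0.23 to 0.32, and Igf2 at 6.04 and 6.10 against 3.73 to 3.78. Of the 405 genes that lay apart there by at least 1 log2 unit, 233 (57.5%) passed with RA, close to the 58.5% of all genes tested.

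The 2-cell list and some genes outside the lists split the RA arrays another way. Gm428 was at 5.52 and 5.36 on RA arrays 3 and 5, at 3.48 and 3.59 on RA arrays 4 and 6, and at 3.98 and 4.39 on RA arrays 1 and 2. The mean of the 2-cell list was 1.47 and 1.19 on RA arrays 3 and 5 and 0.01 and 0.11 on RA arrays 4 and 6. Pramel37 was at 2.41 and 2.34 against 1.23 on both, and Tbc1d12 at -0.22 and -0.42 against -1.18 and -1.12. The design text mentions duplicates and does not say which arrays they are.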
